A study of Mus musculus with 12 samples.

Results

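The genes of the mitochondrial respiratory chain are encoded in both the nucleus and the mitochondrial genome, and this report follows them in mouse thymocytes with and without a Satb1 knockout. The nuclear genes were taken by symbol: those beginning with Nduf and a letter of a, b, c, s or v and a digit, Sdha to Sdhd, and those beginning with Uqcr, with Cox4 to Cox8 and a letter of a, b, c or i, or with Atp5, leaving out names that hold -ps. The mitochondrial genes were all rows that lie on the mitochondrial chromosome. This gave 127 members among the 49997 genes of the tables, of which 90 are nuclear and 37 mitochondrial. The rule uses names and chromosome only, and no measured value.

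RNA with a poly(A) tail was sequenced from thymocytes sorted into 2 kinds, labelled DP and CD4. Cells at the DP stage display CD4 together with CD8, and those at the later CD4 stage have kept CD4 alone. The design has 4 groups of 3 libraries: DP WT, DP KO, CD4 WT and CD4 KO, where KO is a knockout of Satb1 and WT is wild type. The SATB1 protein shapes the folding of chromatin in developing T cells. All 12 samples, WT included, carry tamoxifen as their treatment, and the replicate number is also given as the batch. The sources used here give neither the age of the animals nor the Cre driver, the removed part of Satb1 or the sorting gates. Whether each library had its own mouse is not said in the labels. The p-values therefore describe the spread between these libraries, and that spread may be technical.

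Respiratory complexes I, III and IV pass electrons from NADH to oxygen and pump protons across the inner mitochondrial membrane, complex II feeds in electrons from succinate, and ATP synthase (complex V) uses the proton gradient to make ATP. Complex II is encoded wholly in the nucleus, while the other complexes join nuclear subunits with subunits translated inside the mitochondrion. The mitochondrial genome is read as long transcripts that are cut into mRNAs, rRNAs and tRNAs. Thymocytes divide rapidly before the DP stage and then come to rest, and mature CD4 cells that leave the thymus rely largely on respiration.

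By the start of the symbol alone, 42 nuclear members were placed in complex I, 4 in complex II, 8 in complex III, 19 in complex IV and 17 in ATP synthase. A symbol need not match the complex in which a protein works, and all counts and sums per complex follow the symbol. The mitochondrial rows comprise 13 mRNAs, 2 rRNAs and 22 tRNAs. The mRNAs encode 7 subunits of complex I (ND1 to ND6 and ND4L), cytochrome b of complex III (CYTB), 3 subunits of complex IV (COX1 to COX3) and 2 of ATP synthase (ATP6 and ATP8).

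Promoter sequence is shown first for 5 nuclear members on which the results turn: Uqcr11, with the largest called rise in CD4 KO, Ndufs5 and Atp5h, which fell most from DP WT to CD4 WT among members whose average log2 CPM was 2 or more, Cox6a1, named for its interaction value, and Atp5g1, which moved against the other members. The sequences are those of RefSeq on GRCm38.p6, the assembly of mm10, written 5′ to 3′ on the gene's strand. Each is the longest stretch of the 250 bases before the annotated start that no annotated exon covers. Capitals mark the letters GCGCANGCG, a core of the NRF1 recognition sequence, and CCGGAAG, that of ETS factors such as GABP. Both factors are known regulators of nuclear respiratory genes. In Atp5g1, where neither was found in this stretch, capitals mark CCAAT, the sequence that NF-Y recognises. All motifs were searched on both strands.
Uqcr11: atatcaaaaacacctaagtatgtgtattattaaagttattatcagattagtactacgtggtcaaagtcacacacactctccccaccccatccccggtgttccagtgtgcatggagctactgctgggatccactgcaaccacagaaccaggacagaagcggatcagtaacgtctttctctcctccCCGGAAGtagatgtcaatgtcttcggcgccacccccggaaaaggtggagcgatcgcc
Ndufs5: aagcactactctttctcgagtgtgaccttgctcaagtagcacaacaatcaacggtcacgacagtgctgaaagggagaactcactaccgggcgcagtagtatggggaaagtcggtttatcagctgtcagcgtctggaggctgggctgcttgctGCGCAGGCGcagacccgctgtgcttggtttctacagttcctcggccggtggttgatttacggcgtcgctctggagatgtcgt
Atp5h: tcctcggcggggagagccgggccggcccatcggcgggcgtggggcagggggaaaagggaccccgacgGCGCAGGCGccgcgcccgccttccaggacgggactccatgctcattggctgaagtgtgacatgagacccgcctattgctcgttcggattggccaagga
Cox6a1: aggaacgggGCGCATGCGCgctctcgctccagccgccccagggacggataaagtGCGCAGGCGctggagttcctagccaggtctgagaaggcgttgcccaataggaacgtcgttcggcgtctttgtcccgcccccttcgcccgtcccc
Atp5g1: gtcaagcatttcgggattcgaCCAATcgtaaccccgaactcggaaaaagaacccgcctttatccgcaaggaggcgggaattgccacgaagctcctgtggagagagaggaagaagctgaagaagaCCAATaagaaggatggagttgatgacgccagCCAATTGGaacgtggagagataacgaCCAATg

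In these stretches Uqcr11 (chr10:80406831-80407071) holds its ETS match from 66 bases before the start, Ndufs5 (chr4:123718203-123718436) its NRF1 match from 98 bases and Atp5h (chr11:115419963-115420127) its NRF1 match from 141 bases before it. Cox6a1 (chr5:115348982-115349129) holds NRF1 matches from 162 and 117 bases before the start, and the first overlaps a match on the opposite strand. Atp5g1 (chr11:96075695-96075881) holds CCAAT 5 times, with matches on opposite strands overlapping in one place.

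Sequencing gave 22790500 to 62422600 counts per library, so that a count of 3, taken here as the limit of detection, corresponds to 0.0464 to 0.134 CPM (counts scaled to a common total through the TMM-adjusted library size). This limit covers counting error only, and PCR copies are not independent molecules. Satb1 itself lay at 3832 to 3888 CPM in DP WT and 2455 to 2873 in DP KO, and at 3000 to 3513 in CD4 WT and 1469 to 1545 in CD4 KO. It fell by 0.56 on the log2 scale in DP (SE 0.0755, adjusted p = 0.000539, edgeR's quasi-likelihood test with Benjamini-Hochberg adjustment, the test used throughout) and by 1.12 in CD4 (SE 0.0785, adjusted p = 7.86e-06), and stayed well above 0 in both.

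Some libraries stood apart. Replicates 1 and 2 of DP WT held 0.829 and 0.269 CPM of Xist, the RNA of the inactive X chromosome of females, against 194 to 588 in the other 10 libraries, while Ddx3y of the Y chromosome lay between 39.4 and 125 in all 12. The same pair had the most genes with a count, 33782 and 30359, against 22819 to 27519 elsewhere. The libraries labelled CD4 KO held 20.0 to 41.5 CPM of Zbtb7b, the factor that sets the CD4 lineage, against 355 to 413 in CD4 WT and at most 7.13 in DP. Of 22 cell cycle genes, 22 rose in CD4 KO, with a median log2 change of 1.5, and 22 fell from DP WT to CD4 WT, with a median of -2.27. In DP KO 4 fell. Of 9 markers of DP cells, 7 rose and 1 fell in CD4 KO and 8 fell and 1 rose in DP KO, and of 9 markers of CD4 cells 6 fell in CD4 KO. In DP KO 2 of the CD4 markers rose, Il7r by 4.16 and S1pr1 by 2.51 on the log2 scale, and 2 fell. Cd4 is in both lists. Of all genes tested, 20.9% rose and 18.6% fell in CD4 KO, 16.7% and 14.1% did so in DP KO, and 27.1% fell from DP WT to CD4 WT. The summed level of 9 myeloid markers was 75.0 to 104 CPM in DP WT, 76.2 to 98.4 in DP KO, 86.4 to 154 in CD4 WT and 97.9 to 154 in CD4 KO. The summed level of 7 B cell markers was 17.8 to 22.6 CPM in DP WT, 21.9 to 27.3 in DP KO, 8.04 to 19.8 in CD4 WT and 21.4 to 31.6 in CD4 KO, so that the CD4 groups did not overlap. In CD4 KO 1 of 7 rose, Cd79b, part of the B cell receptor, by 2.27 on the log2 scale (adjusted p = 0.000165), from 3.52 ± 1.59 to 17.4 ± 0.333 CPM (SD, n = 3). No gene of these 2 lists was under the limit of detection throughout any group. Gene by gene, 6 of 9 myeloid markers were called higher and 2 lower in CD4 WT than in DP WT, with a median log2 change of 1.47. Between the KO groups 6 were higher and 1 lower, with a median of 2.10. Of the 7 B cell markers 3 were higher and 1 lower in each. Of all genes, 27.9% were higher and 27.1% lower between the WT groups, and 13.9% and 7.82% between the KO groups. The sum of 9 stromal and epithelial markers, nearly all of it the endothelial gene Pecam1, was 146 to 151 CPM in DP WT, 169 to 191 in DP KO, 194 to 215 in CD4 WT and 169 to 187 in CD4 KO, and 1 to 3 of the 9 were under the limit of detection in all libraries of a group. That of 7 erythroid markers was 17.9 to 232 CPM, and its groups overlapped. In bulk samples, fewer cells of a type and less RNA per cell cannot be told apart, and the part of cell composition or division in the results below was not tested.

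The summed level of the 90 nuclear members followed the cell type and, in CD4, the genotype. It was 7762, 7566 and 7108 CPM in DP WT replicates 1, 2 and 3, and 7635, 7997 and 8398 CPM in DP KO. In CD4 WT it was 5767, 5463 and 6014 CPM, and in CD4 KO 6518, 6770 and 7287 CPM. The DP groups overlapped. All CD4 WT libraries lay below all others, and all CD4 KO libraries lay above CD4 WT. As a mean ± SD over 3 libraries, the sum was 7479 ± 335 in DP WT, 8010 ± 382 in DP KO, 5748 ± 276 in CD4 WT and 6858 ± 392 in CD4 KO.

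The summed level of the 13 mitochondrial mRNAs did not show this order. It was 26738, 22241 and 22540 CPM in DP WT, 21431, 17558 and 21533 in DP KO, 26894, 24307 and 25182 in CD4 WT, and 27935, 22527 and 22763 in CD4 KO. The 3 DP KO libraries were the 3 lowest of 12, and the other groups overlapped. The mitochondrial mRNAs thus came to 3.19 ± 0.253 times the nuclear members' counts in DP WT, 2.52 ± 0.308 times in DP KO, 4.43 ± 0.239 times in CD4 WT and 3.58 ± 0.621 times in CD4 KO (SD, n = 3). These sums carry no test.

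**Figure D1:**
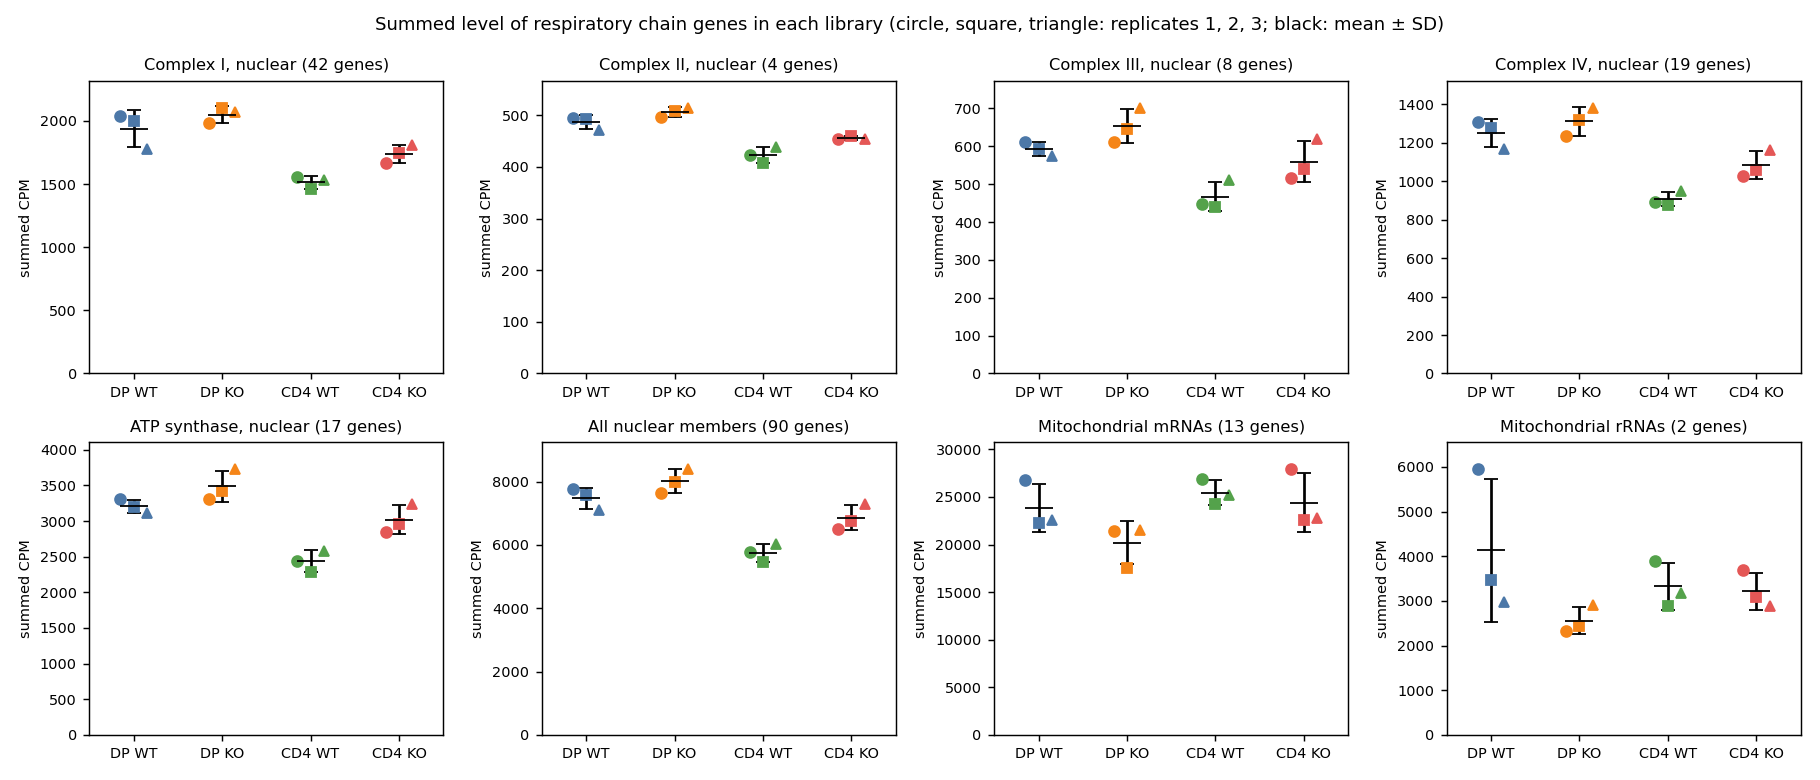
Summed CPM of the members of each complex in each of the 12 libraries, with the group mean ± SD (n = 3). In the nuclear panels CD4 WT lies lowest, at 5463 to 6014 CPM over all 90 nuclear members. In the panel of mitochondrial mRNAs DP KO lies lowest, at 17558 to 21533 CPM.

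Levels of single genes were compared per length, as CPM per kilobase of the gene's counted exons, averaged over the 4 groups. Atp5b, the catalytic beta subunit of ATP synthase, was the highest nuclear member at 451 CPM per kilobase, followed by Cox4i1, a structural subunit of complex IV, at 341, and by Cox6a1, another, at 277. Atp5a1, Uqcrc1, Ndufs3 and Ndufa7 are annotated on further sequences besides their chromosome, so their lengths may hold the same exons more than once. Their values per kilobase may therefore be too low, and Atp5a1 (4864 bases, 158 CPM per kilobase) could stand higher in this order. In DP WT its level was 846 ± 20.5 CPM, against 892 ± 35.2 for Atp5b (SD, n = 3). The median nuclear member lay at 54.3 CPM per kilobase. The mitochondrial mRNAs ran from 5171 CPM per kilobase for COX1, the catalytic subunit of complex IV, over COX2 at 3750, ATP6 at 3464, COX3 at 2998 and CYTB at 2203, down to 396 for both ND6 and ND3 and 88.7 for ATP8. Of the nuclear members 2, Cox8c and Cox7b2, had no count in any library, and Cox8b, Ndufa11b and Ndufa4l2 had 51, 13 and 9 counts in all 12. These 5 passed the low-count filter in no comparison. Cox6a2, with 187 counts in all, passed in 4 of 5, so 84 nuclear members were tested in the DP comparison and 85 in the others. The isoforms of complex IV known from muscle, heart, lung or testis (Cox8b, Cox8c, Cox7b2, Cox6a2, Cox4i2, Cox6b2 and Cox7a1) lay under 8 CPM in every library.

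In CD4 thymocytes nuclear respiratory chain genes were broadly higher in KO than in WT. The 2 groups also differed in DP, CD4 and cell cycle markers, as given above, and the part of this in the rise was not tested. Of 85 tested, 37 rose and 0 fell, where 20.9% of all genes tested rose, 18.6% fell and 39.5% were called in either direction. Over all 85, called or not, 74 log2 changes were positive, and the median was 0.25 against 0.00 for all genes. No nuclear member was lower at an unadjusted p under 0.05 in edgeR, and DESeq2's Wald test also called 37 higher and 0 lower. The changes were small, with 0.69 the largest log2 change among those called. In 48 of 85 members the lowest CD4 KO library lay above the highest CD4 WT library, against 26.9% of all genes, and in 0 the reverse held, against 25%. With the replicate number as a block, 47 rose, where 23.3% of all genes did. Leaving out CD4 WT replicate 2 lowered the count to 21, and leaving out any other library gave up to 37. The share of all genes called higher was 16.5% to 19.5% in these runs, and 16.5% without CD4 WT replicate 2.

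By complex, complex I had 16 of 40 tested members higher, complex II 1 of 4, complex III 4 of 8, complex IV 8 of 16 and ATP synthase 8 of 17. The mean summed level rose 1.15 times for complex I, 1.08 for complex II, 1.20 for complexes III and IV, and 1.24 for ATP synthase.

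Uqcr11, a small subunit of complex III (chr10:80402997-80406821, mm10, minus strand), had the largest rise. It was 18.8, 17.7 and 17.2 CPM in CD4 WT and 26.6, 30.7 and 28.9 CPM in CD4 KO, with no overlap, a log2 change of 0.69 (SE 0.0903, adjusted p = 0.000295). In DP it was 36.1, 33.8 and 24.3 CPM in WT and 34.6, 41.3 and 34.9 in KO, and those groups overlapped. The CD4 KO libraries thus lay above CD4 WT and within the range of DP WT. Among the other members of complex III, Uqcrc2, a core protein, changed by 0.27 (SE 0.0642, adjusted p = 0.00795) and Uqcr10, another small subunit, by 0.38, and both rose.

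Ndufb8, an accessory subunit of the membrane arm of complex I (chr19:44548571-44555442, minus strand), was 40.5, 36.7 and 37.6 CPM in CD4 WT and 55.0, 61.8 and 58.1 CPM in CD4 KO. The groups did not overlap, and the log2 change was 0.61 (SE 0.0736, adjusted p = 0.000173). It also rose in DP, from 56.9, 57.5 and 56.5 CPM to 70.1, 76.6 and 67.9 CPM (log2 change 0.34, SE 0.0731, adjusted p = 0.0068). Ndufa12, Ndufs5 and Ndufb9, 3 further accessory subunits, rose in CD4 KO by 0.60, 0.56 and 0.49 on the log2 scale. The 7 core subunits of complex I that are encoded in the nucleus are conserved from bacteria and include the carriers of its flavin and iron-sulphur clusters. They had 2 of 7 called higher and a median change of 0.10, against 14 of 33 and 0.22 for the other nuclear members of complex I. This grouping was chosen after the values were seen, and the difference was not tested.

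Of complex II, Sdhd, the small membrane anchor that holds the haem, rose from 47.8, 46.5 and 49.2 CPM to 58.0, 62.9 and 62.5 CPM, without overlap (log2 change 0.36, SE 0.0645, adjusted p = 0.00198). The flavoprotein Sdha, the iron-sulphur protein Sdhb and the anchor Sdhc had log2 changes of 0.10, -0.04 and 0.11 and were not called. In complex IV, Cox7a2 (0.54), Cox7c (0.45) and Cox5b (0.44), all structural subunits, rose. The call of Cox7a2 was the weakest of these (SE 0.177, adjusted p = 0.0372) and was lost under 3 of 11 alternatives.

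In ATP synthase Atp5b was 657, 595 and 672 CPM in CD4 WT and 841, 864 and 903 CPM in CD4 KO (log2 change 0.44, SE 0.0722, adjusted p = 0.00112). Atp5h, the d subunit of the peripheral stalk (chr11:115415691-115419919, minus strand), was 108, 99.3 and 105 CPM in CD4 WT and 134, 130 and 160 CPM in CD4 KO (log2 change 0.44, SE 0.0862, adjusted p = 0.003). Neither gene's groups overlapped. Of the other subunits of the F1 head, which makes ATP, and of its stalk, Atp5a1 rose by 0.32, while Atp5c1, Atp5d and Atp5e had changes from -0.04 to 0.22 and were not called.

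**Figure D2:**
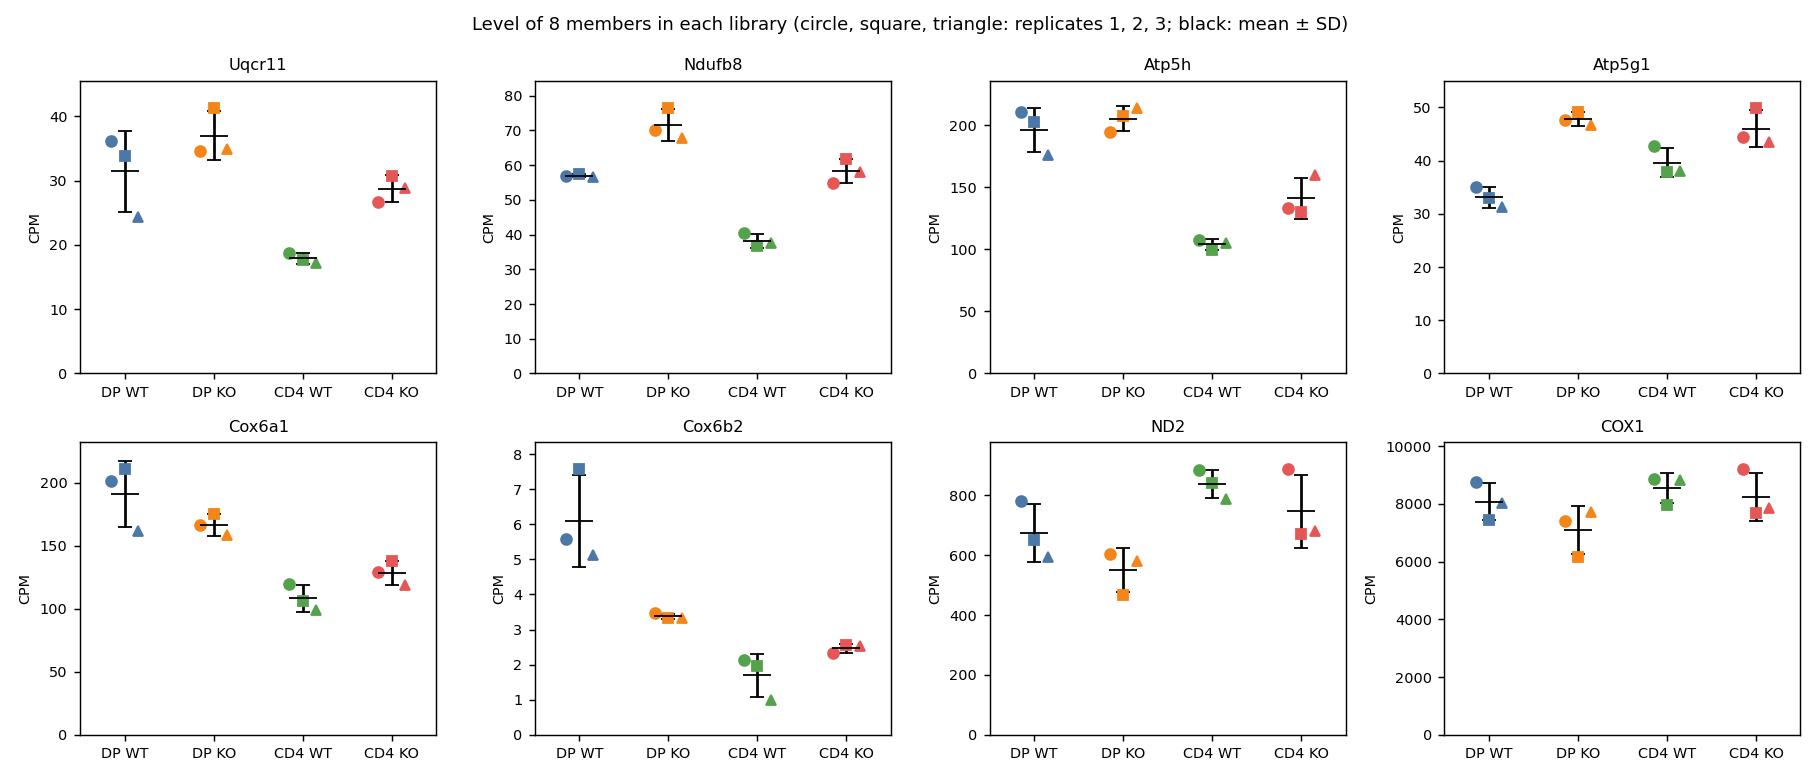
CPM of 8 members in each library, with the group mean ± SD (n = 3), each on its own axis from 0. Uqcr11, Ndufb8 and Atp5h lie lowest in CD4 WT, Atp5g1 lies lowest in DP WT at 31.2 to 35.1 CPM, and Cox6b2 lies highest there at 5.13 to 7.58 CPM.

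In DP thymocytes fewer nuclear members were called between KO and WT. Of 84 tested, 12 rose and 2 fell, where 16.7% of all genes rose and 14.1% fell. The share called higher, 14.3%, was near that background. The direction was mostly shared all the same, with 73 of 84 log2 changes above 0 and a median of 0.12 against 0.01 for all genes. Leaving out DP WT replicate 3 alone lowered the median to 0.07, with 59 of 85 changes above 0. Without DP WT replicates 1 and 2, the pair low in Xist, the median was 0.23 against 0.02 for all genes. That fit has 1 control library, so its calls are not given. Leaving out one library at a time gave 2 higher without DP WT replicate 2, 6 without DP WT replicate 1, DP WT replicate 3 or DP KO replicate 2, and 9 to 10 without the others. The share of all genes called higher was 10.8% to 16.8% in these runs, and 10.8% without DP WT replicate 2. With the replicate block 8 rose and 2 fell, where 16.4% of all genes rose and 13.8% fell. The lowest KO library lay above the highest WT library in 22 of 84 members, against 23.7% of all genes, and the highest KO library lay below the lowest WT library in 2, against 21.7%.

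ATP synthase held 5 of the 12 rises, complexes I and IV 3 each and complex III 1. Atp5g1, 1 of 3 genes for the c subunit that forms the rotating ring (chr11:96072793-96075694, minus strand), rose most. It was 35.1, 33.0 and 31.2 CPM in DP WT and 47.6, 49.2 and 46.7 CPM in DP KO, without overlap (log2 change 0.54, SE 0.0794, adjusted p = 0.000842), and its call held under all 12 alternatives. Its paralogue Atp5g2 rose by 0.32 (SE 0.0746, adjusted p = 0.0104), from 96.1 to 101 CPM in WT to 113 to 133 CPM in KO. The third gene, Atp5g3, was 185 to 201 CPM in WT and 176 to 212 CPM in KO, a log2 change of 0.01 that was not called. The c subunit they encode is the same after the import sequence is removed. Atp5l (0.35) and Atp5mpl (0.32), small subunits of the membrane part, and Atp5d (0.25), of the stalk, also rose. Outside ATP synthase Ndufb8 (0.34), Ndufc2 (0.28) and Ndufa10 (0.22), accessory subunits of complex I, rose, as did Cox7c (0.31), Cox7a2l (0.29) and Cox7b (0.25) of the complex IV names. Uqcrc2 rose by 0.21 (SE 0.0631, adjusted p = 0.0336), a call that was lost under 8 of 12 alternatives and with the block (adjusted p = 0.0564). Of the 3 members on the X chromosome, Cox7b rose, and Ndufa1 and Ndufb11 had changes of -0.02 and -0.08.

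The 2 members that fell in DP KO were isoforms of complex IV that are scarce in thymocytes. Cox6b2, known from testis (chr7:4751792-4753094, minus strand), was 5.57, 7.58 and 5.13 CPM in DP WT and 3.46, 3.33 and 3.32 CPM in DP KO (log2 change -0.85, SE 0.186, adjusted p = 0.00754). Its common counterpart Cox6b1 was 75.4 to 88.2 CPM in DP WT and 77.6 to 86.1 CPM in DP KO, with a change of 0.03. Cox4i2, known from lung, was 0.754, 0.567 and 0.535 CPM in WT and 0.230, 0.147 and 0.185 CPM in KO (log2 change -1.70, SE 0.413, adjusted p = 0.0122), close to the limit of detection. It had 8 to 14 counts per DP KO library and passed the low-count filter through the WT group, where it is high, so its values are a description, and its call was lost under 3 of 12 alternatives.

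Of the 37 members higher in CD4 KO, 6 were also higher in DP KO, which is 6 of the 12 higher there. The effect of the knockout in CD4 minus that in DP was tested in one model over the 12 libraries. The difference was positive and called for 12 of 85 nuclear members and negative for 0, where 14.4% of all genes were called positive, 13.4% negative and 27.8% either way, so the share of 14.1% was near the background. By edgeR 15 were positive and 1 negative at an unadjusted p under 0.05, and DESeq2 called 12 positive and 1 negative. The largest differences on the log2 scale were 1.37 for Cox6b2, 0.45 for Cox6a1 (SE 0.142, adjusted p = 0.0318), 0.43 for Ndufs6 and 0.42 for Ndufb7, and the calls of these 4 were lost under 1, 10, 5 and 11 of 18 alternatives. Cox6a1 was 202, 211 and 162 CPM in DP WT and 167, 175 and 158 CPM in DP KO, groups that overlapped, and 120, 106 and 99.3 CPM in CD4 WT against 129, 138 and 119 CPM in CD4 KO, which overlapped at a single pair. The count depended on single libraries of every group. Without DP WT replicates 1 and 2 the median difference of nuclear members was 0.05, against 0.15 in the main fit, at 1 DP WT library. With one library left out, 1 was positive without DP WT replicate 2, 2 without CD4 WT replicate 2, 3 without DP KO replicate 1 or 2, 4 without DP WT replicate 1 or CD4 KO replicate 3, and 5 to 11 without the others. The share of all genes called positive was 11% to 13.5% in these runs.

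Between the cell types in wild type, nuclear members were lower in CD4 than in DP. Of 85 tested, 55 fell and 1 rose, where 27.1% of all genes fell and 27.9% rose. The median log2 change was -0.36 against 0.00 for all genes, and 80 of 85 changes were negative. In 60 of 85 members all CD4 libraries lay below all DP libraries, against 30.6% of all genes, and in 1 above them, against 32.1%. Without DP WT replicates 1 and 2 the median was -0.28 against 0.05 for all genes, at 1 DP WT library. Cell type and count table go together, so a difference between the tables cannot be told apart from one between the cell types.

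The falls spread over 26 of 40 members of complex I, 3 of 4 of complex II, 6 of 8 of complex III, 10 of 16 of complex IV and 10 of 17 of ATP synthase. Ndufs5, an accessory subunit of complex I (chr4:123712710-123718186, minus strand), was 37.9, 37.9 and 32.2 CPM in DP WT and 17.3, 18.0 and 19.7 CPM in CD4 WT, without overlap (log2 change -0.98, SE 0.0986, adjusted p = 1.48e-05). Atp5h was 211, 203 and 177 CPM in DP WT against 108, 99.3 and 105 CPM in CD4 WT, also apart (log2 change -0.92, SE 0.0786, adjusted p = 4.28e-06). Cox6a1, Uqcr11 and Cox7a2 fell by 0.82, 0.82 and 0.73 on the log2 scale. Cox6b2 had the most negative change of the called members, at -1.82 (SE 0.279, adjusted p = 0.000314).

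Of the succinate dehydrogenase subunits Sdhd fell by 0.43, Sdhc by 0.28 and Sdha by 0.17, while Sdhb had a change of -0.13 and was not called. The single rise was Atp5g1, at 33.1 ± 1.93 CPM in DP WT and 39.6 ± 2.72 in CD4 WT (SD, n = 3; log2 change 0.25, SE 0.084, adjusted p = 0.027), a call lost under 4 of 12 alternatives. This comparison and that of CD4 KO with CD4 WT share the CD4 WT libraries, so they are not independent.

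The same cell types were compared within the knockout. Of 85 nuclear members, 14 were lower in CD4 KO than in DP KO and 1 was higher, where 7.82% of all genes were lower and 13.9% higher, and the median was -0.21. In 48 members all CD4 KO libraries lay below all DP KO libraries, against 19.5% of all genes, and in 1 above them, against 20.6%. The count of 14 called lower depended on the model and on single libraries. It was 4 without CD4 KO replicate 1, 5 without CD4 KO replicate 2, 6 and 8 without DP KO replicates 2 and 1, 16 without DP KO replicate 3 and 29 without CD4 KO replicate 3. The share of all genes called lower was 3.63% to 8.65% in these runs. With the replicate block 61 were lower and 1 higher, where the block gave 57 lower and 1 higher between the WT groups, and with DESeq2 27 were lower and 0 higher. Of all genes, the block called 17.6% lower between the KO groups and 28.4% between the WT groups. DESeq2 called 11.1% lower between the KO groups. Whether the cell types differ by another amount in KO than in WT is what the interaction tests. Ndufs5 was 36.1, 38.9 and 43.4 CPM in DP KO and 24.4, 23.9 and 32.7 CPM in CD4 KO, without overlap (log2 change -0.53, SE 0.136, adjusted p = 0.0269, with the block adjusted p = 0.000342). Atp5h was 195, 208 and 214 CPM in DP KO and 134, 130 and 160 CPM in CD4 KO (log2 change -0.52, SE 0.0928, adjusted p = 0.00533). The 1 higher member was Cox6a2, an isoform of heart and muscle, at 0.0657 to 0.147 CPM in DP KO and 0.208 to 0.511 in CD4 KO. It had 4 to 8 counts per DP KO library and passed the low-count filter through CD4 KO, where it is high, so these values are a description, and the call was lost under 8 of 11 alternatives. Others that were lower in CD4 KO included the complex I subunits Ndufa6 (-0.39), Ndufa8 (-0.39) and Ndufv3 (-0.38).

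**Figure D3:**
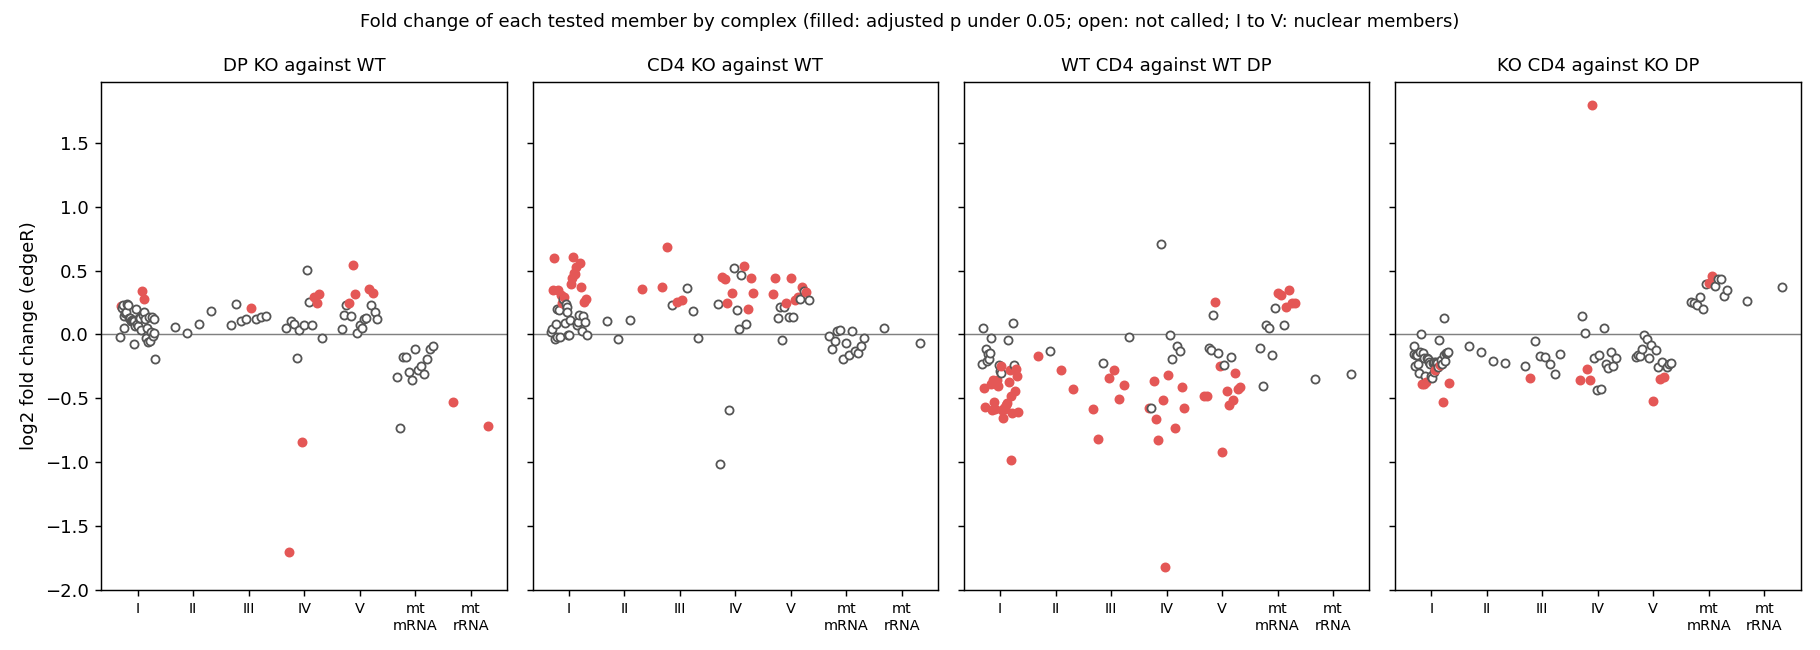
Log2 fold change of every tested member in 4 comparisons, by complex for nuclear members (I to V) and by class for mitochondrial rows. Filled points passed an adjusted p of 0.05. In CD4 KO against WT the 37 called nuclear members all lie above 0, and in WT CD4 against WT DP 55 of the 56 called lie below it, while the mitochondrial mRNAs lie at or above 0 for 10 of 13.

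**Figure D4:**
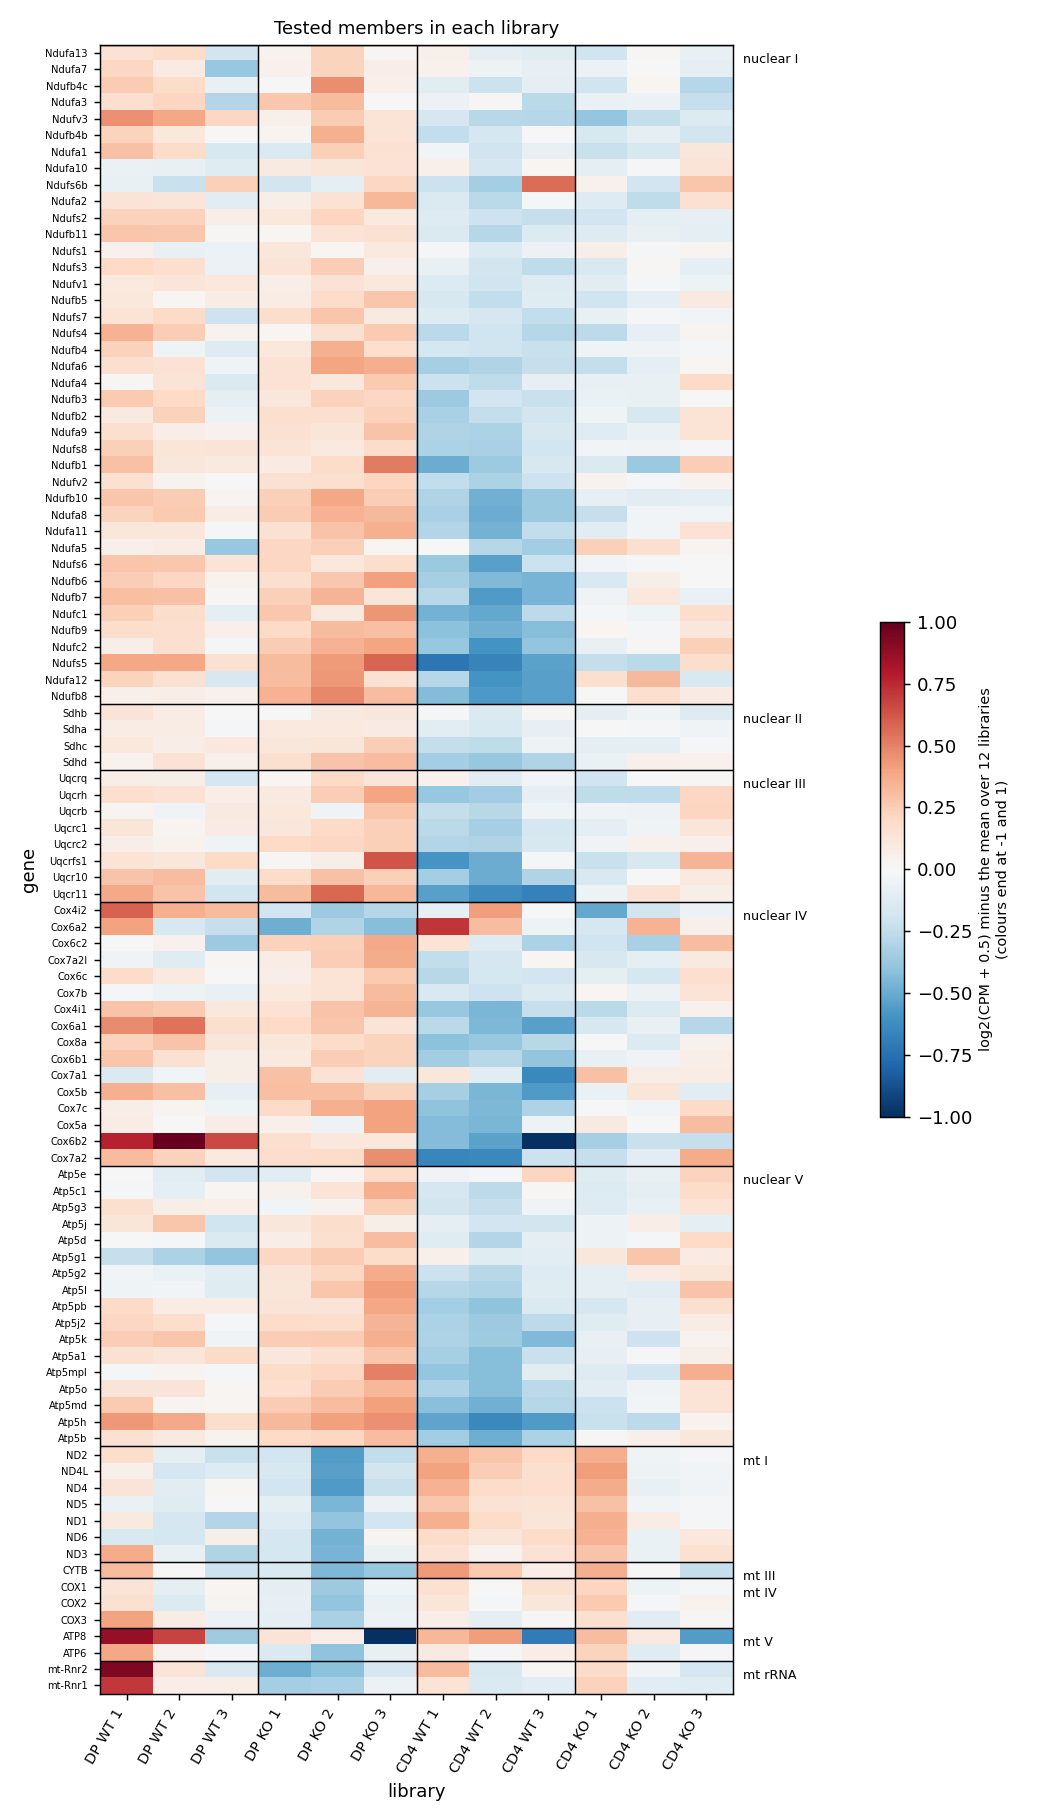
Level of each tested member in each library, as log2(CPM + 0.5) minus its mean over the 12 libraries, grouped by complex. Most nuclear rows are lowest (blue) in CD4 WT, most mitochondrial mRNA rows are lowest in DP KO replicate 2, and the 2 rRNA rows are highest (red) in DP WT replicate 1.

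The mitochondrial mRNAs were then described apart from the nuclear members. In CD4 KO 0 of 13 mRNAs were called, 0 passed an unadjusted p under 0.05 in edgeR and DESeq2 called 0. Their log2 changes ran from -0.19 to 0.03 with a median of -0.07. With the replicate block 1 was called lower. COX1 was 8844, 7946 and 8825 CPM in CD4 WT and 9204, 7667 and 7841 CPM in CD4 KO, so that its groups overlapped.

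In DP KO all 13 mRNAs had negative changes, with a median of -0.24, and 0 were called. By edgeR 4 were lower at an unadjusted p under 0.05, and DESeq2 and the replicate block each called 4 lower. Of all genes they called 16.3% and 13.8% lower. COX1 was 8750, 7443 and 8042 CPM in DP WT and 7412, 6164 and 7724 CPM in DP KO, with overlap (log2 change -0.17, adjusted p = 0.219). CYTB was 3072, 2474 and 2133 CPM in DP WT and 2227, 1816 and 1904 CPM in DP KO, again with overlap (log2 change -0.36, adjusted p = 0.0694, with the block adjusted p = 0.0149). ND4 had a change of -0.31 (adjusted p = 0.0571, with the block adjusted p = 0.0141) and ATP6 one of -0.34 (adjusted p = 0.0642, with the block adjusted p = 0.0347).

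Both mitochondrial rRNAs fell in DP KO. The large subunit rRNA mt-Rnr2 (chrM:1094-2675) was 4941, 2820 and 2322 CPM in DP WT and 1836, 1943 and 2303 CPM in DP KO (log2 change -0.72). The small subunit rRNA mt-Rnr1 (chrM:70-1024) was 1012, 651 and 647 CPM in DP WT and 491, 497 and 598 CPM in DP KO (log2 change -0.53). Replicate 1 of DP WT stood above all other libraries in both. Without it, 0 mitochondrial rows were called in DP, and likewise without DP KO replicate 2. In poly(A)-selected libraries rRNA levels also depend on the selection, whose part here was not tested.

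Between WT cell types, 6 of 13 mitochondrial mRNAs were higher in CD4 than in DP and 0 lower, where 27.9% of all genes were higher. By edgeR 0 were lower at an unadjusted p under 0.05 and DESeq2 called 0 lower, while the block called 1 lower. All 6 encode subunits of complex I: ND1, ND2, ND4, ND4L, ND5 and ND6. The remaining complex I mRNA, ND3, had a change of 0.08 and was not called (adjusted p = 0.676), and its groups overlapped. ND4L (chrM:9877-10173) was 186, 159 and 164 CPM in DP WT and 236, 213 and 200 CPM in CD4 WT, without overlap (log2 change 0.35, SE 0.0848, adjusted p = 0.0058). ND2 (chrM:3914-4951) was 780, 650 and 592 CPM in DP WT and 883, 839 and 789 CPM in CD4 WT, also apart (log2 change 0.31, SE 0.1, adjusted p = 0.0243). The 6 called genes thus went the other way from the nuclear subunits of the same complex, of which 26 of 40 fell and 0 rose.

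ND6 is the one mRNA read from the opposite strand, and its change of 0.25 was the same to 2 decimals as that of ND5. COX1, COX2 and COX3 had changes of 0.08, 0.05 and -0.16, ATP6 of -0.10 and ATP8 of -0.40, none of them called. CYTB had a change of 0.20 that was called with the replicate block (adjusted p = 0.0116). In place of 6, 1 mRNA was higher without DP WT replicate 2, 2 without CD4 WT replicate 1 and 3 without DP WT replicate 3. Of all genes 23.6%, 23.9% and 26.4% were higher in these runs. Whether the complex I mRNAs differ from those of complexes IV and V was not tested.

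Between the KO groups 2 of 13 mRNAs were called higher in CD4 and 0 lower, where 13.9% of all genes were higher, a share near that of the mRNAs, 15.4%. All 13 log2 changes were above 0, from 0.20 to 0.45 with a median of 0.35. The called mRNAs were ND1 and ND2, with changes of 0.40 (SE 0.116, adjusted p = 0.0406) and 0.45 (SE 0.137, adjusted p = 0.0479), and 8 of 13 passed an unadjusted p under 0.05. With the block 12 of 13 were called higher, while 0 were called without DP KO replicate 1, DP KO replicate 2 or CD4 KO replicate 1. Of all genes 20.4% were higher with the block, and 9.24%, 11.5% and 9.05% without these libraries. ND2 was 605, 468 and 582 CPM in DP KO and 887, 671 and 681 CPM in CD4 KO, and these did not overlap. The interaction was called for 0 of 16 mitochondrial rows by edgeR, with 1 higher at an unadjusted p under 0.05, and for 1 by DESeq2, while the block called 4 higher.

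ATP8 and ATP6 share bases, and so do ND4L and ND4, which bears on their counts. The last bases of ATP8 (chrM:7766-7969) are the first of ATP6 (chrM:7927-8607) over 43 bases, shown here with the start codon of ATP6 in capitals. The overlap of ND4L with ND4 (chrM:10167-11544) is 7 bases long. Both sequences are from GENCODE M21 transcripts.
ATP8 and ATP6: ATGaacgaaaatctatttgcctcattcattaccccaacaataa
ND4L and ND4: ATGctaa
In all, 9 pairs of neighbouring rows on this chromosome overlap, and how reads over such bases were counted is not given in the sources used here. ATP8 was the lowest mRNA per length at 88.7 CPM per kilobase against 3464 for ATP6, although the pair is carried on a common transcript. It was 30.9, 27 and 13 CPM in replicates 1, 2 and 3 of DP WT, and 18.3, 17.5 and 6.56 CPM in DP KO. In CD4 WT it was 21.2, 22.5 and 10.1 CPM and in CD4 KO 20.8, 17.9 and 11.2 CPM. Replicate 3 was the lowest in every group, and with the block the change of ATP8 in DP KO (-0.73 without it) was called (adjusted p = 0.00137), as was its change of -0.40 in CD4 WT against DP WT (adjusted p = 0.00621). Of the tRNA rows 21 of 22 had no count in any library, and TrnP, the proline tRNA, lay between 8.96 and 14.4 CPM. From DP WT to CD4 WT the TrnP row fell from 14.4, 11.0 and 12.1 CPM to 9.10, 9.18 and 10.2 CPM, without overlap (log2 change -0.40, SE 0.134, adjusted p = 0.0266), the 1 mitochondrial row called lower there. TrnP is 67 bases long, shorter than the reads of 150 bases. In these poly(A)-selected libraries its counts may come from longer transcripts that hold it rather than from the tRNA, which was not tested.

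Counts for lists of other mitochondrial genes are read against the shares over all genes, which were 20.9% higher and 18.6% lower in CD4 KO, 16.7% and 14.1% in DP KO, and 27.9% and 27.1% in CD4 WT against DP WT. The list for the mitochondrial ribosome was taken by symbol alone, as Mrpl or Mrps with a number. Of its 78 genes, 33 rose and 2 fell in CD4 KO, 21 rose and 2 fell in DP KO, and 5 rose and 35 fell from DP WT to CD4 WT. Mrps33 (0.71) and Mrpl58 (0.56) were among those that rose in CD4 KO. Of 18 subunits and carriers outside the name pattern, 9 rose and 0 fell in CD4 KO, among them cytochrome c, Cycs, by 0.35 and Vdac1, a pore of the outer membrane, by 0.53. Of 17 genes of the citric acid cycle 8 rose and 0 fell in CD4 KO, led by the isocitrate dehydrogenase subunit Idh3a (0.56), and 11 fell and 2 rose in CD4 WT against DP WT.

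Of 49 assembly factors tested, 11 rose and 1 fell in DP KO, 7 rose and 3 fell in CD4 KO, and 10 rose and 10 fell from DP WT to CD4 WT. Their median log2 change was 0.18 in DP KO and 0.06 in CD4 KO. Cox17, the copper carrier for complex IV, rose by 0.73 in CD4 KO, and Sdhaf1, which helps place iron-sulphur clusters in complex II, fell by 0.86. Of 31 genes that copy, transcribe or process the mitochondrial genome, 4 rose and 2 fell in CD4 KO and 7 rose and 1 fell in DP KO. Lrpprc, which stabilises mitochondrial mRNAs, rose by 0.38 in DP KO, and Polg, the mitochondrial DNA polymerase, fell by 0.47 in CD4 KO. Tfam, which packs mitochondrial DNA and starts its transcription, had changes of 0.19 in DP KO and 0.18 in CD4 KO and was not called in either.

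Of 14 regulators of respiratory genes, 13 were tested in DP, where 3 rose and 1 fell, and 14 in CD4, where 4 rose and 2 fell. Myc, a driver of growth and mitochondrial biogenesis, rose from 33.4 ± 3.70 to 134 ± 19.3 CPM in DP KO (log2 change 2.02) and from 79.6 ± 6.40 to 125 ± 18.2 CPM in CD4 KO (0.65). Pprc1, a coactivator of the PGC-1 family, went up by 0.87 in DP KO and down in CD4 KO, where its change was -0.35. Ppargc1a, encoding PGC-1 alpha, rose in CD4 KO but stayed scarce, at 0.124 ± 0.107 CPM in WT and 0.758 ± 0.0992 in KO (SD, n = 3). Its WT mean was at the limit of detection, and it passed the low-count filter through CD4 KO, where it is high. These values are therefore a description, although the gene is 1 of the 4 counted as higher. Gabpa, the DNA-binding part of GABP, rose by 0.23 in CD4 KO, while Nrf1 had a change of 0.20 (adjusted p = 0.051) and was not called.

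The RefSeq promoter table held 70 of the 90 nuclear members. In windows from 250 bases before to 50 bases after the start, GCGCANGCG was found in 19 of 70, or 27.1%, against 12.1% of 12119 genes tested in CD4 and 6.47% of all 27025 promoters. CCGGAAG was found in 16 of 70, or 22.9%, against 16.8% and 9.12%. GGGCGG, the box bound by SP1, was found in 40.0% of members against 58.1% of tested genes and 35.9% of all promoters. CCAAT was found in 42.9% of members, 38.7% of tested genes and 37.9% of all promoters, and TATAAA in 11.4%, 8% and 14.2%. AAGATGGCG, a core of the YY1 site, was found in 6 of 70, or 8.57%, against 2.87% and 1.49%. None of these motifs contains another. Split by the call in CD4 KO, GCGCANGCG was found in 14 of 34 members called higher and 5 of 34 not called, CCGGAAG in 11 and 5 of 34, AAGATGGCG in 4 and 2 of 34, and CCAAT in 12 and 17 of 34. A match is a description of the letters, not of binding, and these shares were not tested.

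**Figure D5:**
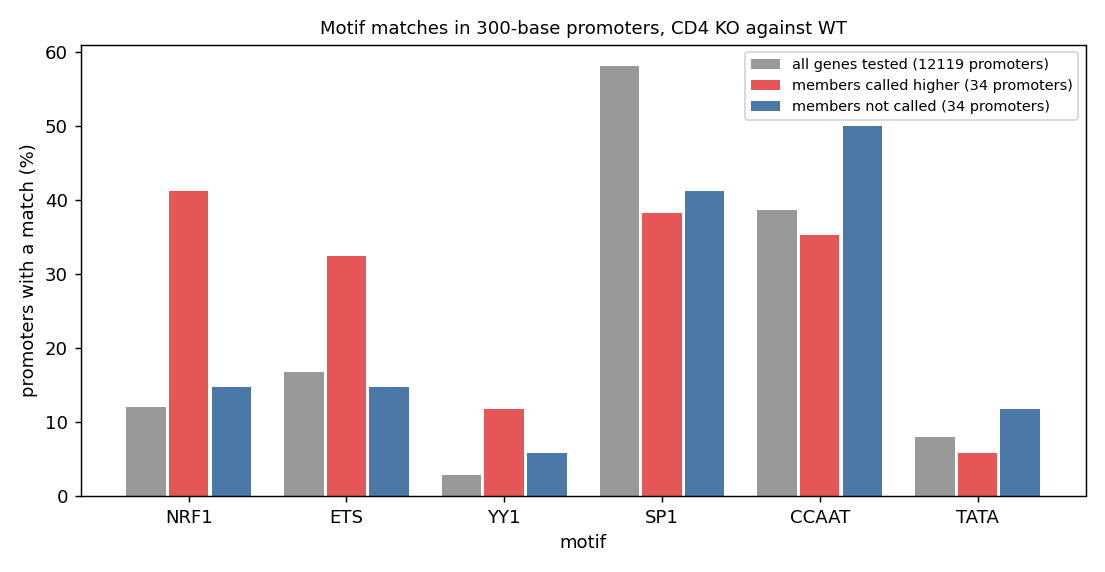
Percent of promoters with a match to each of 6 motifs (NRF1, ETS, YY1, SP1, CCAAT and TATA) among all genes tested in CD4, nuclear members called higher in CD4 KO and nuclear members not called. The NRF1 and ETS bars are highest for the called members, at 41.2% and 32.4%, against 14.7% for each among the members not called.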

How the data were processed

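Raw counts of reads on each gene were deposited by the authors in 2 tables, one for the 6 DP and one for the 6 CD4 libraries, which were joined here by gene symbol. Per the labels' protocols, poly(A) RNA was sequenced as paired reads. Named in the submitters' processing notes are mm10, R 4.1.5, Subread 1.0.1 and DESeq2, without their roles. Not given in the sources used here are the aligner, whether strand was used and how multiply matching reads were counted. Reads of overlapping genes, and of members with near-identical copies or pseudogenes, are therefore uncertain.

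Groups come from the titles of the samples. Counts were tested with edgeR 4.0.16 in R 4.3.3 (quasi-likelihood, TMM, default low-count filter, full library sizes) over all genes, and an adjusted p under 0.05 was called. Each pairwise comparison used its 6 libraries and the interaction all 12. Standard errors are the log2 change divided by the root of F. The functions were tested on simulated data. Replicate libraries differed by more than counting noise (chi-square per degree of freedom 13.8 to 45.8). The labels give the replicate number as the batch, so numbers pair the samples. Over 12 same-numbered pairs the deviations correlated at -0.00 to 0.49. In both comparisons between cell types every replicate matched best with its own number, and in the comparisons of KO with WT only some did. The main fits did not use this pairing, which entered only as the replicate block among the alternatives.

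Genes named were Satb1, the called members with the 5 largest and 5 smallest changes per comparison (3 and 3 for the interaction) at an average log2 CPM of at least 2, the 2 smallest adjusted p per complex, all mitochondrial mRNAs, the Sdh genes, the muscle and heart isoforms and up to 3 genes of each list. Members given beyond these were Uqcr10, Atp5a1, Atp5c1, Atp5d, Atp5e, Atp5g3, Cox6b1, Cox4i1, Cox7a2l, Cox7b, Ndufa1, Ndufa10, Ndufb11, the rRNAs and TrnP. They and the list genes Tfam, Nrf1 and Gabpa were chosen after their values were seen. All members called in the interaction are also given. The members and lists were chosen with earlier results of these data known.

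Alternatives were DESeq2 1.42.0 size factors and Wald test, no low-count filter, normalization on nuclear genes alone, the replicate block, each library left out, and DP WT replicates 1 and 2 left out together. For the mitochondrial share, the top 1% of other genes was also left out of the total. Plots were made in Python 3.11.15 with matplotlib 3.10.9. Promoter windows are from the RefSeq table on GRCm38.p6.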

Additional observations from a re-analysis of the deposited data

Results flagged for a closer look

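The effect of the knockout in CD4 minus that in DP passed edgeR's quasi-likelihood test of the interaction (Benjamini-Hochberg adjusted p under 0.05) for 12 of 85 nuclear members, or 14.1%, all with the more positive change in CD4. Of all genes 14.4% were called in that direction, so the members' share is near the background. In complex IV the difference on the log2 scale was 1.37 for Cox6b2, 0.45 for Cox6a1, 0.37 for Cox8a and 0.30 for Cox6b1. In complex I it was 0.43 for Ndufs6, 0.42 for Ndufb7, 0.34 for Ndufb9, 0.28 for Ndufb8 and 0.27 for Ndufs8. In ATP synthase it was 0.38 for Atp5h, 0.29 for Atp5b and 0.29 for Atp5a1. Cox6b2 fell in DP KO and had an uncalled change of 0.52 in CD4 KO, while Ndufb8 rose in both. Among these 12, adjusted p ran from 0.00748 for Cox6b2 to 0.0497 for Ndufb8. Without DP WT replicates 1 and 2 the median difference of nuclear members was 0.05, against 0.15 in the main fit, with 1 DP WT library.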

How the results depend on the processing

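Of 116 called results for named genes, 72 kept their call and direction under every alternative run, 44 lost the call under at least 1 and 0 turned direction. Of 31 uncalled results, 19 passed under at least 1. The summed levels moved by less than 1 SD.

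With the replicate block, mitochondrial rows called lower became 5 in DP KO, 1 in CD4 KO and 3 in WT CD4 against DP. In KO CD4 against DP it gave 61 nuclear members lower and 13 mitochondrial rows higher, and in the interaction 4 mitochondrial rows higher and 1 nuclear member lower. Of all genes it called 17.6% lower and 20.4% higher in KO CD4 against DP, and 16.8% positive and 16% negative in the interaction. DESeq2's Wald test called 5 mitochondrial rows lower in DP KO. In KO CD4 against DP it called 0 nuclear members higher, 27 lower and 7 mitochondrial rows higher, and in the interaction 1 nuclear member lower and 1 mitochondrial row higher. Without the low-count filter, which moved the median log2 change of all genes to -0.58 in DP KO, -0.52 in WT CD4 against DP and 0.63 in the interaction, mitochondrial rows lower were 8 in DP KO and 3 in WT CD4 against DP. In KO CD4 against DP 0 nuclear members were higher, 28 lower and 12 mitochondrial rows higher, and in the interaction 5 nuclear members and 5 mitochondrial rows were higher.

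Without DP WT replicates 1 and 2, the median log2 change of nuclear members was 0.23 in DP KO, -0.28 in WT CD4 against DP and 0.05 in the interaction. That of the mitochondrial mRNAs was -0.15, 0.23 and 0.10. DP WT then rests on 1 library, assumed to vary like the others. With each library left out in turn, DP KO gave 2 to 10 nuclear members higher, 1 to 4 lower and 0 to 4 mitochondrial rows lower. CD4 KO gave 21 to 37 nuclear members higher and 0 to 3 mitochondrial rows lower. WT CD4 against DP gave 0 to 1 nuclear members higher, and 1 to 7 mitochondrial rows higher and 0 to 2 lower. KO CD4 against DP gave 0 nuclear members higher and 4 to 29 lower, and 0 to 4 mitochondrial rows higher. The interaction gave 1 to 11 nuclear members higher and 0 to 1 lower, and 0 to 2 mitochondrial rows higher. Of all genes 10.8% to 16.8% were higher in DP KO, 16.5% to 19.5% in CD4 KO and 11% to 13.5% in the interaction. In KO CD4 against DP 3.63% to 8.65% were lower. The cause was not tested for any of these.

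The share of counts from the mitochondrial chromosome, 2.75%, 2.28%, 2.84% and 2.84% in DP WT, DP KO, CD4 WT and CD4 KO, became 4.12%, 3.39%, 4.19% and 4.16% without the top 1% of other genes in the total. Uncalled mitochondrial mRNAs turned sign in 12 cases. In DP KO these were ND6 (0.044) and ND5 (0.017) without DP KO replicate 2 (from -0.19 and -0.16 with other libraries left out), and ND3 (0.077), ATP8 (0.13) and ND1 (0.059) without DP WT replicates 1 and 2. In WT CD4 against DP, with each library left out, ATP6 ran from -0.17 to 0.035, COX2 from -0.019 to 0.12 and ND3 from -0.055 to 0.29, and COX3 (0.053), ATP6 (0.069) and ATP8 (0.48) turned without DP WT replicates 1 and 2. In KO CD4 against DP ATP8 ran from -0.093 to 0.47.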
